A study of Mus musculus with 8 samples.

Results

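The regions described here are the open-chromatin regions of mouse gastrocnemius, a hindlimb muscle of mainly fast fibres, that the deposited table annotated either as "3' UTR Exon" or as "TTS", its label for the end of a transcript. They were taken on chromosomes 1 to 19 by that annotation alone. This gave 40201 of 489637 regions in the table, or 8.41% of the 477757 regions on chromosomes 1 to 19, at 10643 genes. Of these, 23677 were TTS regions and 16524 were 3' UTR Exon regions. Below they are called end-annotated regions, because many of them did not lie at the end of a gene.

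The libraries, 4 of Vehicle and 4 of iMSBmal1KO muscle, were made by ATAC-seq. In this assay the enzyme Tn5 cuts and tags DNA that nucleosomes leave exposed, so that read number reports accessibility. All 8 came from gastrocnemius muscles of mice labelled Cre+:iMSBmal1 fl/fl and aged 6 months. The Vehicle group received vehicle and the iMSBmal1KO group received tamoxifen, the drug that activates an inducible Cre, so both groups carried Cre and the floxed alleles and no group without Cre was included. The line is known as an inducible knockout in skeletal muscle, and the promoter that drives Cre is not given in the sources used here. The labels do not say whether each library came from a separate animal, so p-values measure the spread between these libraries.

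BMAL1 is a transcription factor of the circadian clock that pairs with CLOCK and binds E-boxes, whose core letters are CACGTG, mostly near gene starts and in enhancers. The end of a gene is where the transcript is cut and polyadenylated and where RNA polymerase II leaves the template. In genes without strong enhancers there, chromatin at the end is usually far less accessible than at the start. A 3' UTR is the stretch of mature transcript after the stop codon, and in a transcript sorted for nonsense-mediated decay the stop codon comes early, so that everything after it counts as 3' UTR.

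Some end-annotated regions lay at or near a start. In all, 16.5% of them, and 25.9% of TTS regions, were within 1000 bp of an annotated start of any gene. Of the 40201 regions, 133 overlapped 96 RefSeq promoter windows (GRCm38.p6, 250 bases before to 50 after a gene's start), 77 of them windows of another gene and 19 of the gene the region was annotated to. CACGTG, searched on both strands, was present in 4 of these 96 windows (4.17%), against 7.15% of all 32851 windows. A pair of 30-base stretches around that motif is shown because they are the known BMAL1 motif inside an end-annotated region with strong signal, 5' to 3' on the strand of the gene whose start is near, with the motif in capitals:
B930059L03Rik start: gcctccacggcgCACGTGactggatgagtc
Gm34157 start: cgctccagccccCACGTGgggcgcgccggc
The first lies at chr12:110591349-110591378 on the plus strand, inside the TTS region of B930059L03Rik. Taking replicates in order, its signal read 663, 653, 458 and 447 for Vehicle and 655, 759, 592 and 631 for iMSBmal1KO, so the groups overlapped (log2 change 0.27, SE 0.19, adjusted p = 0.648 by limma over all tested regions). The second lies at chr9:61370657-61370686 on the minus strand, inside a TTS region annotated to Gm10655. There the signal was 349, 294, 292 and 225 in Vehicle and 391, 391, 237 and 319 in iMSBmal1KO, again with overlapping groups (log2 change 0.19, SE 0.21, adjusted p = 0.767). A match of these letters is a description of the sequence and not a measured binding site.

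The annotation itself was checked next. TTS regions reached from 999 bp before to 99 bp after the end of a transcript. All 3' UTR Exon regions lay at least 1000 bp before it. Of the 16524 3' UTR Exon regions, 12888 (78.0%) were assigned to transcripts of the nonsense_mediated_decay class, at a median of 17.1 kb and at most 781 kb before the transcript end, and 3636 to protein-coding transcripts, at a median of 2660 bp. In the 1882 decay-class transcripts with such a region, 11434 further regions lay downstream of the first one. None of these 11434 was annotated as intron or coding exon, 11006 being annotated as 3' UTR Exon and 428 as TTS. The same held in the 1210 protein-coding transcripts with a 3' UTR Exon region. Of their 3121 further regions, 2426 were annotated as 3' UTR Exon and 695 as TTS. Protein-coding 3' UTR Exon regions lay up to 370 kb before the transcript end. In the table the label thus ran on without a break from its first region to the transcript end and did not separate exons from introns. The TTS regions were mixed as well, since 9730 of 23677 (41.1%) belonged to protein-coding transcripts, 3974 to retained_intron, 2998 to processed_transcript, 1636 to lincRNA and 1468 to processed_pseudogene transcripts. Of the 37157 regions with a RefSeq gene of the same symbol, 8645 (23.3%) lay within 1000 bp of that gene's end, 40.2% of TTS regions and 1.47% of 3' UTR Exon regions. These 8645 are called RefSeq ends below.

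**Figure D1:**
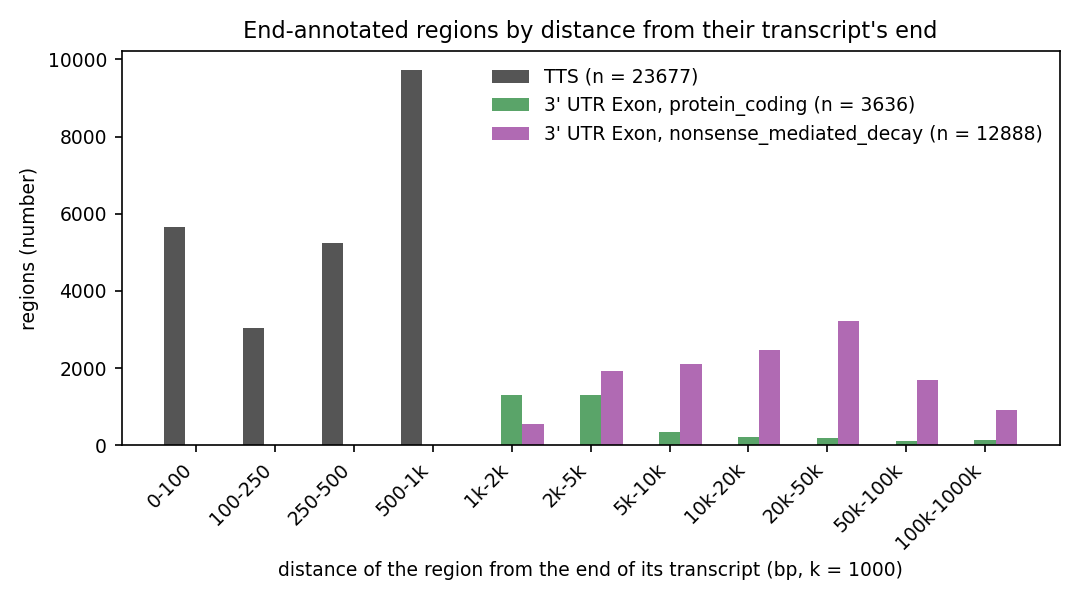
Number of end-annotated regions (vertical axis) in bins of distance from the end of their own transcript (horizontal axis, bp), for TTS regions and for 3' UTR Exon regions of protein-coding and of nonsense_mediated_decay transcripts. TTS regions stop at 1000 bp, and the 12888 regions of the decay class peak between 20 and 50 kb, with 3230 regions there.

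The number of regions per gene ranged widely. Rora, a nuclear receptor that activates Bmal1 transcription, had the most, with 114 regions that were all 3' UTR Exon, the nearest of them 2692 bp from its RefSeq end. Smg6, an endonuclease of nonsense-mediated decay, had 102, Uvrag, an autophagy factor, had 94, Ulk4 had 89 and Lrmda had 86. At the other extreme, 4176 of the 10643 genes had 1 region. The summed signal of the Rora regions was 2671, 2444, 2271 and 1838 in Vehicle and 2267, 2292, 2179 and 2235 in iMSBmal1KO. The iMSBmal1KO libraries lay inside the Vehicle range (log2 change -0.03, SE 0.15, adjusted p = 0.961).

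The libraries held between 4.31 and 29.5 M read equivalents (values divided by what 1 read is worth in that library) in all regions, and the median tested end-annotated region held between 6 and 45 reads. Vehicle replicate 4 was the shallowest, and 16.5% of its read equivalents were mitochondrial, against 1.11% to 5.51% in the other libraries. As a check of the tissue, signal per 100 bp at the starts of 6 myofibre markers had a median of 153 in Vehicle, against 2.34 to 10.1 for the starts of endothelial, fibro-adipogenic, satellite cell, macrophage, smooth muscle, Schwann cell and adipocyte markers. Over the 7 denervation markers the median start level was 5.5 to 8.41 in Vehicle and 9.69 to 12 in iMSBmal1KO, without overlap. In each of the other marker lists the ranges of the groups overlapped. No background was computed for such medians. Of 30601 tested autosomal start regions, all iMSBmal1KO libraries lay above all Vehicle libraries in 1000 and below them in 382. The median log2 change of these start regions was 0.17 at the deposited scaling. The part of the denervation difference in the results below was not tested. At the targeted gene (Arntl in the table, the symbol for Bmal1) the sum over 82 regions was 1942 to 2688 in Vehicle and 3023 to 3421 in iMSBmal1KO. No background was computed for such sums. Over its start regions the groups overlapped, at 497 to 795 in Vehicle and 562 to 742 in iMSBmal1KO. Of its 37 tested regions, 1 was called, a 5' UTR Exon region (log2 change 1.08, SE 0.21, adjusted p = 0.0468 by limma). These are measures of accessibility that do not show whether its exons were deleted. In whole-muscle nuclei, fewer nuclei of a type and less signal per nucleus cannot be told apart.

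Pooled over all regions of a class, end-annotated regions held far less signal per base than gene starts. In Vehicle, TTS regions held 15.5 ± 1.12 units of signal per 100 bp (SD, n = 4), where signal is reads scaled by a factor per library. The level was 10.8 ± 1.01 in 3' UTR Exon regions, 14.0 ± 0.927 at RefSeq ends and 50.3 ± 6.03 at annotated starts. Introns held 11.8 ± 0.949 and intergenic regions 10.5 ± 0.518 per 100 bp. On this pooled level, TTS regions were above introns, and 3' UTR Exon regions below introns, in each of the 8 libraries. In iMSBmal1KO the levels were 17 ± 1.24 for TTS regions, 10.9 ± 0.333 for 3' UTR Exon regions and 14.2 ± 0.546 for RefSeq ends (SD, n = 4), and for all 3 classes the ranges of the groups overlapped. Per region, 127 TTS regions (0.536%) and 56 3' UTR Exon regions (0.339%) held over 100 units per 100 bp in Vehicle, against 2424 start regions (3.50%). The median region held 5.30 per 100 bp in Vehicle for TTS, 4.33 for 3' UTR Exon, 8.14 for starts and 4.31 for introns. By the median region the gap to starts was thus smaller, and 3' UTR Exon regions were level with introns.

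**Figure D2:**
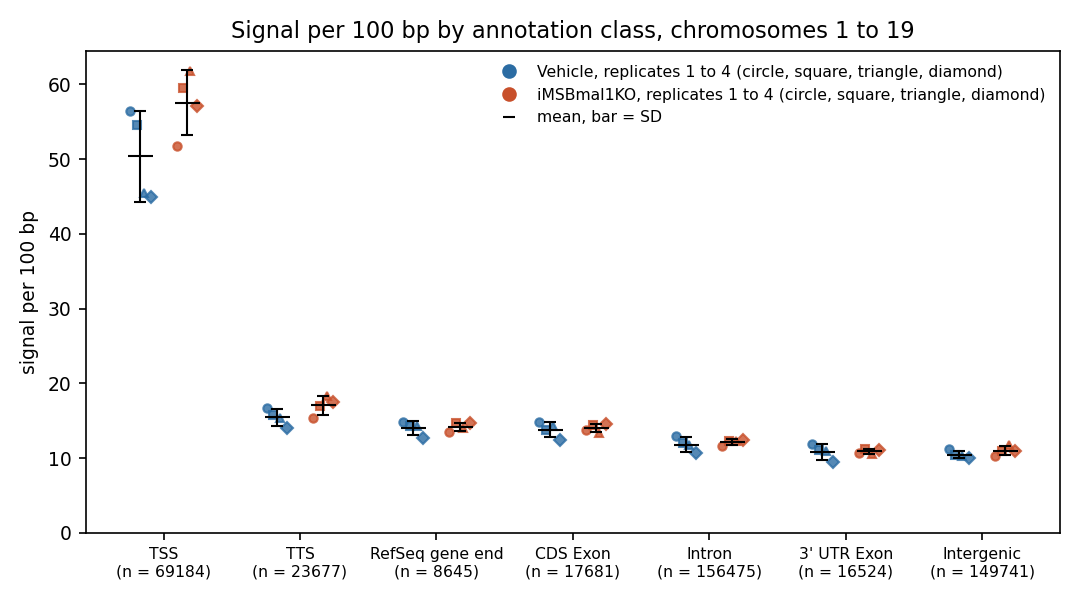
Signal per 100 bp (vertical axis), pooled over the regions of each annotation class on chromosomes 1 to 19, in the 8 libraries. The mean and SD of each group are drawn, and n under a class is its number of regions. Starts stand between 44.9 and 61.8, while TTS, RefSeq end and 3' UTR Exon regions stand between 9.42 and 18.3 with overlapping groups.

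Within the last kilobase of transcripts there was little structure. For protein-coding TTS regions, the median Vehicle level per 100 bp was 5.64 in the 100 bp bin that begins 1000 bp before the end, 5.95 in the one that begins 500 bp before it, 6.14 in the next to last and 5.12 in the last, over 611 to 893 regions a bin. In the first 100 bp after the end it was 5.78. On the Vehicle mean, the last 100 bp before the end was thus the lowest of these bins, by a small margin. This did not hold in every library. In Vehicle replicate 1 that bin read 5.15, against 4.95 in the first bin and 4.98 just after the end.

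The Vehicle signal was concentrated in few regions. The median end-annotated region held a signal of 5.69, while the top 402 regions, 1 in 100 of the class (signal of at least 255) held 35.9% of all Vehicle signal in the class, the top 20 held 10.1% and the top 2 held 5.38%. The 2 strongest were a TTS region of CT010467.1, an rRNA gene on chromosome 17 (chr17:39847576-39848712), and one of Gm21738 on chromosome 14 (chr14:19415727-19416254). At the former, signal was 28715, 31643, 15368 and 15562 in Vehicle and 34122, 39010.1, 63867 and 45312 in iMSBmal1KO. The groups did not overlap, but the change did not pass the threshold over all tested regions (log2 change 1.04, SE 0.28, adjusted p = 0.401).

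Ranked per base, the 10 genes with the most end signal in Vehicle (at least 200 bp of end-annotated region) were mostly unnamed or pseudogene models. The levels per 100 bp were 2246 ± 274 at Gm21738, 1596 ± 593 at CT010467.1, 453 ± 339.9 at Gm48258, 372 ± 120.3 at Gm11168, 371 ± 321 at Gm43743, 348 ± 321 at Gm28724, 278 ± 100.4 at Gm10721, 268 ± 86.2 at Gm10715, 226 ± 200.1 at Gm20594 and 223 ± 151 at Gm19193 (SD, n = 4). Reads at near-identical copies could have been split or summed by the mapping, so these levels are uncertain. The libraries fell into patterns by locus. At Gm48258 the summed signal was 817, 651, 1597 and 3239 in Vehicle and 366, 465, 651 and 615 in iMSBmal1KO. At Gm28724 it was 344, 304, 698 and 1907 in Vehicle and 173, 197, 313 and 271 in iMSBmal1KO. Vehicle replicate 4 was the highest of the 8 libraries at Gm48258, Gm43743, Gm28724 and Gm20594, by 3.97 to 6.08 times the median of the other Vehicle libraries. Its mitochondrial signal was 4.72 times theirs. At Gm21738, Gm11168, Gm10721 and Gm10715 the highest library was iMSBmal1KO replicate 3, by 2.15 to 2.62 times the median of the other iMSBmal1KO libraries. At Gm11168, for example, signal was 4101, 3086, 1979 and 4402 in Vehicle and 2117, 4097, 10747 and 6118 in iMSBmal1KO. None of these 10 genes passed the test between the groups (adjusted p of 0.255 for CT010467.1 and of 0.492 to 0.87 for the others, limma over 6751 genes).

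**Figure D3:**
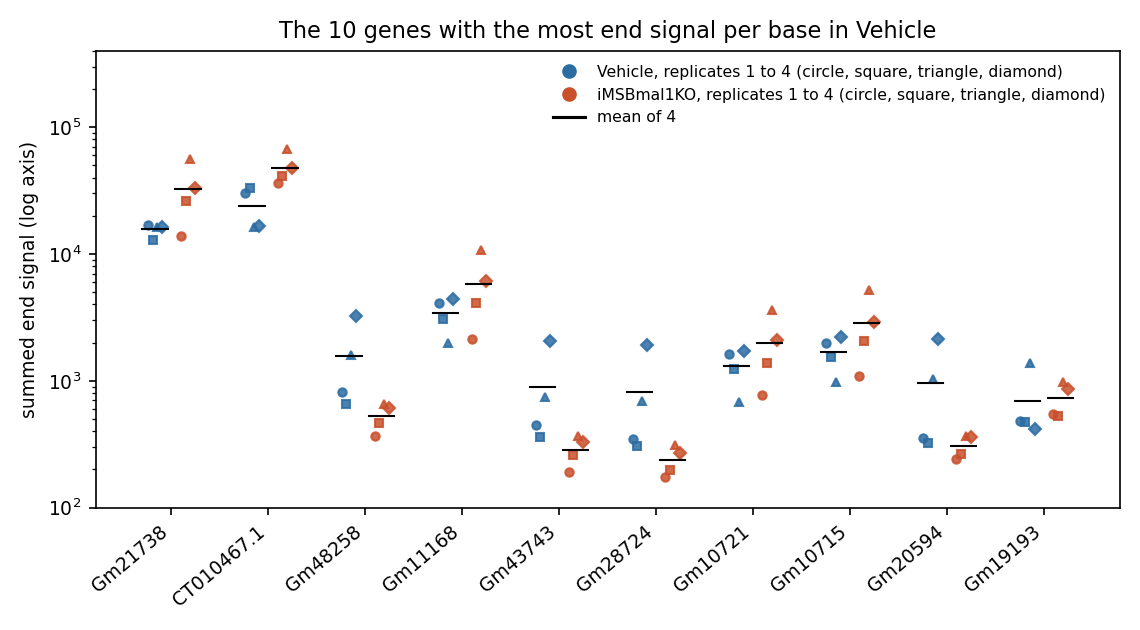
Summed signal of the end-annotated regions (vertical log axis) of the 10 genes with the highest Vehicle level per base, by library, with the mean of each group as a bar. Vehicle replicate 4 (blue diamond) is highest at Gm48258, Gm43743, Gm28724 and Gm20594, and iMSBmal1KO replicate 3 (orange triangle) at Gm21738, CT010467.1, Gm11168, Gm10721 and Gm10715.

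A further ranking took protein-coding genes only, with their regions restricted to RefSeq ends. The pseudogene Gm19193, with a region 141 bp from its RefSeq end, was left out by that choice. Gm20594, described above, aside, the highest was Lars2, the mitochondrial leucyl-tRNA synthetase, with 877 ± 451 per 100 bp at its end (chr9:123461792-123462283) and 49.0 at its start. Its end signal was 5574, 6698, 1836 and 3145 in Vehicle and 4979, 6444, 10089 and 7878 in iMSBmal1KO. The spread within Vehicle was as wide as the gap between the groups, which overlapped (adjusted p = 0.556). As at the rRNA gene CT010467.1, iMSBmal1KO replicate 3 was the highest library and Vehicle replicates 3 and 4 were the lowest. Whether reads from near-identical copies elsewhere added to the Lars2 level was not tested, so this level is uncertain too. Cebpd, a bZIP transcription factor, held 203 ± 61.5 per 100 bp at its end against 77.0 at its start. Its signal was 1319.6, 1216, 1171 and 597 in Vehicle and 664, 990.1, 1091 and 818 in iMSBmal1KO. Ankrd9 held 179 ± 41.8 at its end (chr12:110975513-110976541) and 136 at its start. Its signal was 2183, 1688, 2182 and 1294 in Vehicle and 626, 1917, 1931 and 1619 in iMSBmal1KO, the first iMSBmal1KO library being the lowest of all 8.

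Pgam2, the muscle form of the glycolytic enzyme phosphoglycerate mutase, held 170.4 ± 33.5 per 100 bp at its end and 143 at its start. Its end read 1799, 1562, 1449 and 1101 in Vehicle and 1409.9, 1366, 1371 and 1527 in iMSBmal1KO, the latter inside the Vehicle range. Kremen1, a receptor of the Wnt inhibitor Dickkopf, held 157 ± 33.9. Aimp2, a scaffold protein of the tRNA synthetase complex, held 156 ± 15.8. Heyl, a transcription factor induced by Notch, held 145 ± 30.1 at its end and 20.49 at its start. Znrf1, an E3 ubiquitin ligase, held 142 ± 31.9 at its end and 22.5 at its start, with 2391, 1902, 1671 and 1416 in Vehicle and 1677, 1859, 1950.3 and 2199 in iMSBmal1KO. For none of these 8 genes did the summed signal pass the test (adjusted p from 0.556 to 0.96), and log2 changes lay between -0.37 and 0.87.

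Other strong single regions lay inside genes. An 1124 bp region of Pde4d, a cAMP phosphodiesterase, was annotated as 3' UTR Exon 35.5 kb before its transcript end (chr13:109914807-109915930) and held 2134 ± 658 in Vehicle and 1942 ± 440.3 in iMSBmal1KO. One of Ttc7 lay 9.85 kb before the end (chr17:87350544-87352075) and held 1805 ± 356 and 1618 ± 158. At Sgsm2 (chr11:74866654-74867685) the region was the end of a retained_intron transcript and held 2209.8 ± 411 and 1912 ± 282. At 2310001H17Rik, a lincRNA (chr6:129215994-129217218), it held 1783 ± 479 and 1661 ± 239 (all SD, n = 4). The groups overlapped at each of these 4 regions (adjusted p from 0.699 to 0.91).

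Across the 4851 genes whose end-annotated and start regions both passed the filter, the median ratio of end to start level per base was 0.324 in Vehicle. In 809 genes (16.7%) the level of the end-annotated regions stood above that of the start. Among them were Lars2, Heyl, Znrf1 and Fam178b. Notch3, a receptor of vascular smooth muscle, held 58.5 ± 10.2 in its end-annotated region, 1785 bp from its RefSeq end, and 9.74 at its start.

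iMSBmal1KO was then compared with Vehicle. Of the 40201 end-annotated regions, 10711 (26.6%) held enough reads to be tested among 124901 regions of the whole table. By limma on log2(signal + 1), with Benjamini-Hochberg adjustment over all 124901, 12 of the 10711 (0.112%) passed an adjusted p of 0.05, 7 higher and 5 lower in iMSBmal1KO. Of all tested regions, 0.0881% passed, 0.0312% higher and 0.0568% lower, so the share of end-annotated regions was near that of the table. At an unadjusted p under 0.05 there were 1019 (9.51%), 655 higher and 364 lower, against 9.22% of all tested regions (6.59% higher and 2.63% lower). In 628 (5.86%) the 4 libraries of a group all lay on one side of the other group, against 5.48% of all tested regions. The median log2 change of end-annotated regions was 0.08, that of all tested regions 0.12. The changes of 95.2% of tested end-annotated regions and of 95.5% of all tested regions were under 1 in size on the log2 scale.

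These counts depended on single libraries and on the scaling. The calls over all 124901 regions moved alike. Leaving out Vehicle replicate 4 raised the 12 to 28, and the 110 of all regions to 281. The count dropped to 3 when Vehicle replicate 1 was left out, to 4 for Vehicle replicate 3, to 2 for iMSBmal1KO replicate 2, and to 3 for iMSBmal1KO replicate 3 as for replicate 4, where all regions gave 32, 41, 43, 39 and 57 in that order. With median-of-ratios, trimmed-mean, total autosomal or loess scaling, the median of all tested regions moved from 0.12 to between 0.00 and 0.01, and the calls became 29, 29, 25 and 32, of which 9, 9, 8 and 9 were higher. All tested regions gave 279, 277, 223 and 342 calls, of which 85, 86, 56 and 90 were higher. Among end-annotated regions, the 7 higher and 5 lower calls at the deposited scaling thus turned to an excess of lower ones. Their median turned to between -0.04 and -0.03. Over all tested regions lower calls were already in excess at the deposited scaling, with 39 higher and 71 lower. With limma-voom at the deposited scaling, end-annotated regions gave 13 higher and 16 lower calls.

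**Figure D4:**
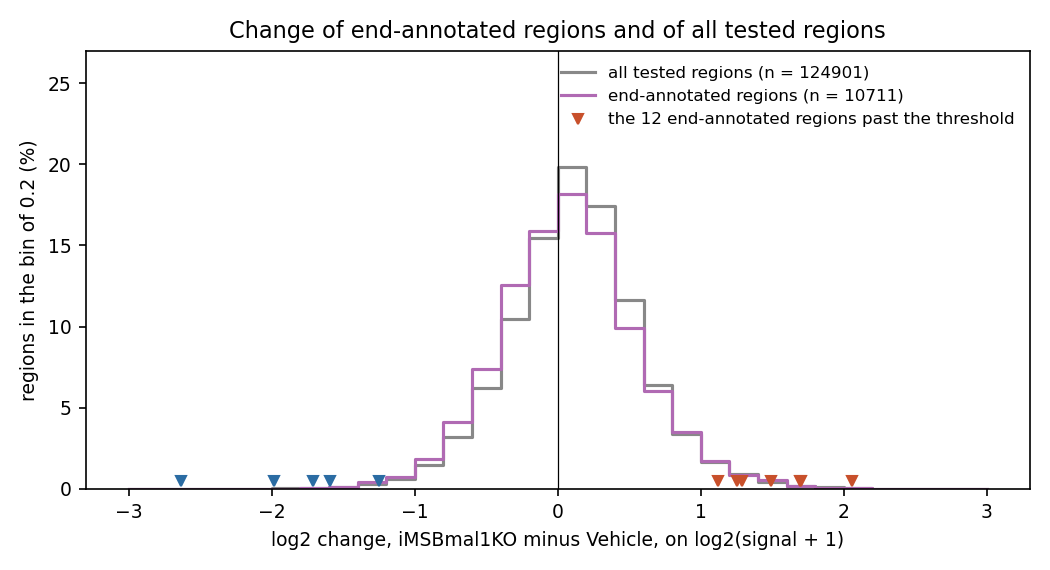
Share of regions (vertical axis, %) by log2 change from Vehicle to iMSBmal1KO (horizontal axis, bins of 0.2) for the 10711 tested end-annotated regions and all 124901 tested regions, with triangles at the 12 end-annotated regions past the threshold (blue lower, orange higher). The distributions overlie each other, with medians of 0.08 and 0.12.

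The largest of the called decreases was at D6Wsu163e, in a 281 bp region 397 bp before the end of a protein-coding transcript (chr6:126944187-126944467), 31.2 kb from the gene's RefSeq end. Its signal was 72.5, 93.5, 55.9 and 43.8 in Vehicle and 8.13, 11.7, 8.35 and 10.0 in iMSBmal1KO. Every iMSBmal1KO library was below every Vehicle library, at 7 to 19 reads against 14 to 91. The log2 change was -2.63 (SE 0.31, adjusted p = 4.04e-04), and the region passed under all 18 alternative settings in which it was tested. The start of D6Wsu163e, the nearest other tested region, lay 4225 bp away and did not move with it (log2 change 0.14, adjusted p = 0.839).

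At Shmt1, the cytosolic serine hydroxymethyltransferase of one-carbon metabolism, a 106 bp region 7.43 kb before the end of a decay-class transcript (chr11:60796574-60796679) fell by 1.99 on the log2 scale (SE 0.30, adjusted p = 0.00759). Its signal was 78.9, 66.8, 47.7 and 50.03 in Vehicle and 17.1, 12.5, 9.54 and 20.1 in iMSBmal1KO, with no overlap. The abutting 55 bp region annotated to Shmt1 changed by -1.43 without passing (adjusted p = 0.29), and the start of Shmt1 by 0.36. Without Vehicle replicate 1 the call was lost (adjusted p = 0.0796).

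Sub1, which encodes the transcription coactivator PC4, held the decrease nearest to an annotated gene end. Its 167 bp region lay 346 bp from the RefSeq end (chr15:11981682-11981848), with 84.2, 56.5, 96.0 and 65.7 in Vehicle and 18.8, 28.4, 34.6 and 17.6 in iMSBmal1KO (log2 change -1.59, SE 0.29, adjusted p = 0.0302). The groups were separate, and the start of Sub1 changed by 0.36. The call was lost when any of Vehicle replicates 1 and 3 or iMSBmal1KO replicates 1, 2 and 4 was left out.

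Fam178b had the strongest signal among the decreases. A 464 bp region 8.34 kb before the end of a decay-class transcript (chr1:36572665-36573128) held 611, 536, 869 and 450.2 in Vehicle and 186, 304, 319.7 and 217 in iMSBmal1KO (log2 change -1.25, SE 0.23, adjusted p = 0.0327). Of the 10 other tested regions within 10 kb, 9 changed in the same direction, 4 of them at an unadjusted p under 0.05. The 4 nearest, all within 938 bp and annotated to Fam178b, changed by -0.98, -0.84, -1.32 and -1.03. Gne, the enzyme that starts sialic acid synthesis and is mutated in a hereditary myopathy, held the fifth decrease in a 257 bp region (chr4:44049383-44049639). Its signal was 41.6, 56.5, 29.9 and 34.4 in Vehicle and 18.0, 10.0, 7.16 and 12.5 in iMSBmal1KO (log2 change -1.71, SE 0.33, adjusted p = 0.0488). Leaving out any library but Vehicle replicate 4 or iMSBmal1KO replicate 1 ended the Gne call, and leaving out any but Vehicle replicate 2 or 4 ended that of Fam178b. The Gne call was also lost with the replicate block (adjusted p = 0.0568) and with a pseudocount of 0.5 (adjusted p = 0.0526).

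Among the 7 called increases, Lrrc28 had the largest. A 106 bp region 23.7 kb before the end of its decay-class transcript (chr7:67537155-67537260) held 11.7, 9.25, 14.6 and 6.25 in Vehicle, from 2 to 23 reads, and 33.4, 63.6, 48.9 and 38.9 in iMSBmal1KO, from 31 to 78 reads. The groups did not overlap (log2 change 2.06, SE 0.33, adjusted p = 0.0117). Lrrc28 had 17 other tested end-annotated regions, of which 13 were higher in iMSBmal1KO and 1 had an unadjusted p under 0.05, their changes ranging from -0.29 to 1.14. The call was lost without iMSBmal1KO replicate 2 or 3.

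Loxl4, a lysyl oxidase-like enzyme that cross-links collagen and elastin, rose at the end of a processed_transcript, 9286 bp from its RefSeq end (chr19:42601565-42601761). Its signal was 71.4, 59.6, 76.9 and 56.3 in Vehicle and 137, 156, 169 and 169 in iMSBmal1KO (log2 change 1.25, SE 0.22, adjusted p = 0.0229). Every iMSBmal1KO library was above every Vehicle library. The 3 tested start regions of Loxl4 changed by 0.51 to 1.10, none past the threshold. The Loxl4 call was lost without Vehicle replicate 1 or 3 or without iMSBmal1KO replicate 2, 3 or 4.

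The lincRNA 4930471C04Rik was the increase at a RefSeq end. Its 355 bp region spans that end (chr14:64099025-64099379) and held 91.7, 48.3, 73.1 and 46.9 in Vehicle and 134, 202, 155 and 238 in iMSBmal1KO (log2 change 1.49, SE 0.26, adjusted p = 0.0237). All 4 other tested regions within 10 kb were higher in iMSBmal1KO, each at an unadjusted p under 0.05, with changes of 1.40, 0.82 and 0.78 at the same lincRNA and 1.19 at the end of Prss51. With the replicate number as a block the 4930471C04Rik call did not hold, nor without Vehicle replicate 3 or iMSBmal1KO replicate 2, 3 or 4.

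Tmem234, a transmembrane protein gene, held 32.0, 21.6, 39.4 and 15.6 in Vehicle and 55.6, 121, 96.6 and 80.3 in iMSBmal1KO in a 176 bp decay-class region (chr4:129603542-129603717, log2 change 1.69, SE 0.31, adjusted p = 0.0327). The groups were separate. Its start, 2594 bp away, changed by 0.95 (adjusted p = 0.147), in the same direction. Slc12a7, the potassium-chloride cotransporter KCC4, held 10.7, 18.5, 26.1 and 31.3 in Vehicle and 66.3, 54.4, 90.7 and 64.0 in iMSBmal1KO (chr13:73779467-73779635, log2 change 1.70, SE 0.31, adjusted p = 0.0365). The groups were again separate, but the Slc12a7 call was lost under all 4 other scalings and whenever any library other than Vehicle replicate 4 was left out. The Tmem234 call was lost without Vehicle replicate 1 or 2 or without iMSBmal1KO replicate 2, 3 or 4.

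The last 2 of the 12 abutted each other at the rRNA gene CT010467.1. A 51 bp region (chr17:39847241-39847291) held 81.0, 85.3, 81.3 and 50.03 in Vehicle and 199, 166, 181 and 172 in iMSBmal1KO (log2 change 1.29, SE 0.23, adjusted p = 0.0249). The adjoining 145 bp region held 327, 366, 234 and 188 in Vehicle and 579, 499.7, 692 and 589.6 in iMSBmal1KO (log2 change 1.12, SE 0.22, adjusted p = 0.0483). Neither overlapped between groups. Within 10 kb of each, all 7 other tested regions were higher in iMSBmal1KO, each at an unadjusted p under 0.05. Ribosomal DNA is present in many copies that reads of this kind cannot tell apart, and these 2 regions are adjoining readings of 1 locus. Both calls were lost without Vehicle replicate 1 or 3 or without any 1 iMSBmal1KO library. That of the 145 bp region was also lost with the replicate block (adjusted p = 0.0753) and with a pseudocount of 0.5 (adjusted p = 0.0525).

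**Figure D5:**
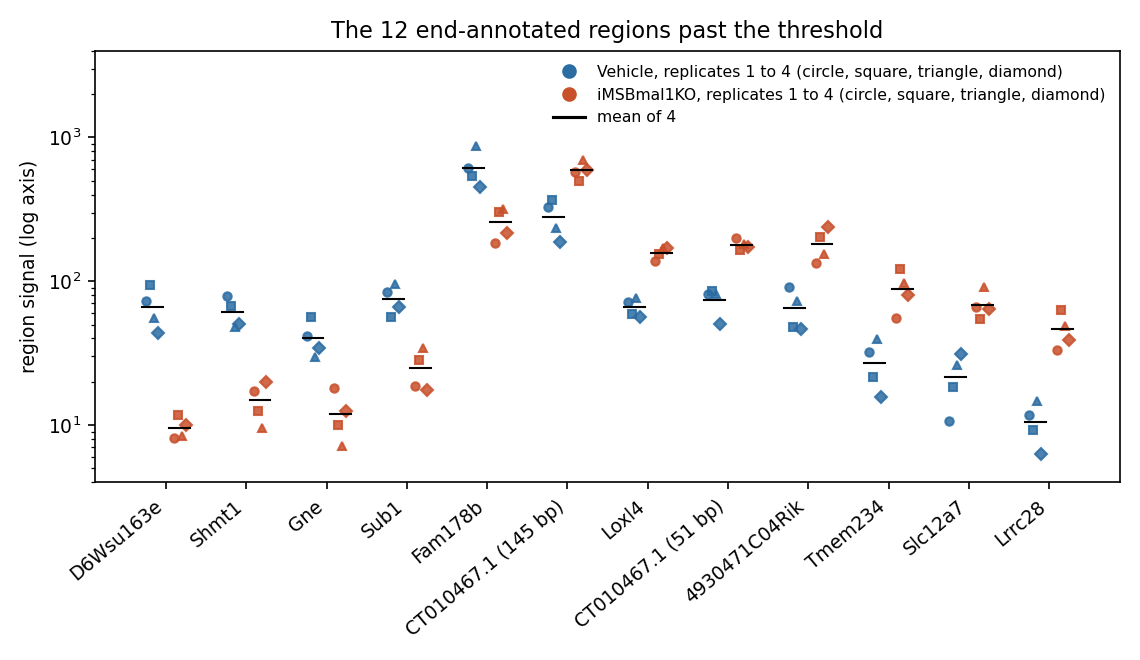
Signal (vertical log axis) of the 12 end-annotated regions past an adjusted p of 0.05 in each of the 8 libraries, ordered by log2 change, with the mean of each group as a bar. In each region every iMSBmal1KO library lies on one side of every Vehicle library.

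Of the 12 regions, 6 were TTS regions (0.0870% of 6897 tested) and 6 were 3' UTR Exon regions (0.157% of 3814 tested). The latter were all of the decay class, which made up 2878 of those 3814. Of the 2580 tested RefSeq ends, 2 were called (0.0775%, Sub1 and 4930471C04Rik). The share over all tested regions was 0.0881%. Of the 11 genes concerned, 10 had tested start regions, and none of those was called. Just outside the threshold were Il31ra, a cytokine receptor subunit (log2 change 1.34, adjusted p = 0.059), Lmf1, a lipase maturation factor (-1.38, 0.0697), A230087F16Rik (1.10, 0.0761), Pilra, an inhibitory receptor of myeloid cells (-1.46, 0.0761), Tnip1 (-1.58, 0.079) and Hadhb (1.20, 0.0804), given for scale only.

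Regions of a gene share neighbouring chromatin, so the end-annotated signal was also summed per gene. Of 6751 genes tested, 11 (0.163%) passed, 5 higher and 6 lower in iMSBmal1KO, and 658 had an unadjusted p under 0.05. Of these 11 genes, 7 were also among the 11 genes with a called region. The other 4 were A230087F16Rik, Pilra, Adra1a and Hadhb. At Hadhb, the beta subunit of the mitochondrial trifunctional protein of fatty acid oxidation, the sum over 5 regions was 174, 147, 102 and 75.04 in Vehicle and 253, 268, 237 and 257 in iMSBmal1KO (log2 change 1.09, SE 0.22, adjusted p = 0.0342). Every iMSBmal1KO library was above every Vehicle library, with little spread among the former. At Adra1a, the alpha-1A adrenergic receptor, the sum was 41.6, 26.7, 55.3 and 25.01 in Vehicle and 11.98, 13.4, 9.54 and 7.53 in iMSBmal1KO (log2 change -1.67, SE 0.33, adjusted p = 0.0324), also without overlap. The Hadhb call was lost without Vehicle replicate 3 or any 1 iMSBmal1KO library (adjusted p from 0.0521 to 0.183), and that of Adra1a without Vehicle replicate 1 or 3 or iMSBmal1KO replicate 2, 3 or 4 (adjusted p from 0.0755 to 0.226). Without Vehicle replicate 4 the count was 26, and without iMSBmal1KO replicate 2, 3 or 4 it was 4, 4 and 3.

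Whether the end-annotated signal of a gene moved apart from its start signal was tested on the ratio of end to start signal per gene. The end-annotated regions summed here need not lie at the end of the gene. Of 4851 genes, 4 passed (0.0825%), and 504 had an unadjusted p under 0.05. The ratio fell by 2.70 on the log2 scale at D6Wsu163e (SE 0.28, adjusted p = 2.51e-04), by 1.90 at Shmt1 (SE 0.28, adjusted p = 0.0121) and by 1.68 at Sub1 (SE 0.28, adjusted p = 0.0344). Of their end-annotated regions, the nearest to the RefSeq end lay 31237 bp away at D6Wsu163e and 3952 bp away at Shmt1. At Sub1 a region spanned that end. Start signal at D6Wsu163e was 204, 262, 188 and 166 in Vehicle and 235, 259, 181 and 216 in iMSBmal1KO. It thus overlapped between the groups where the end-annotated signal did not. At the lincRNA Gm10032 the ratio rose by 1.59 (SE 0.28, adjusted p = 0.0424). There the start signal was 65.0, 53.4, 88.3 and 37.5 in Vehicle and 30.4, 28.4, 25.05 and 17.6 in iMSBmal1KO, while the end signal was 38.4, 46.2, 43.8 and 15.6 in Vehicle and 44.1, 57.7, 45.3 and 32.6 in iMSBmal1KO. The start signal was thus lower and the end-annotated signal overlapped. Only 1 of the 4 remained when Vehicle replicate 3 or iMSBmal1KO replicate 2 was left out, and 2 when Vehicle replicate 1, Vehicle replicate 4, iMSBmal1KO replicate 1 or iMSBmal1KO replicate 4 was.

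As a single value per library, end-annotated regions took 5.85 ± 0.212% of autosomal read equivalents in Vehicle and 5.75 ± 0.0942% in iMSBmal1KO (SD, n = 4). The values were 5.76, 5.69, 6.16 and 5.79% in Vehicle and 5.77, 5.65, 5.71 and 5.87% in iMSBmal1KO, with Vehicle replicate 3 the highest and the groups overlapping. The difference of -0.101 percentage points was within the spread (exact two-sided permutation test over 70 arrangements, p = 0.514, smallest possible p 0.0286). Its direction turned with all chromosomes in the denominator (0.175), with TTS regions alone (0.0366) and without Vehicle replicate 3 (0.00325). With 3' UTR Exon regions alone the difference was -0.137 (exact permutation test, p = 0.0857). Without the 20 strongest end-annotated regions, an alternative chosen after seeing the data, it was -0.377 (exact permutation test, p = 0.0857).

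None of the gene lists held a called end-annotated region. For the clock, 10 of 21 listed genes had end-annotated regions, 61 of which were tested, with 2 higher and 2 lower at an unadjusted p under 0.05 and a median log2 change of 0.01, beside 0.12 for all tested regions. Under the other scalings the clock median turned to between -0.12 and -0.09, beside 0.00 to 0.01, with 1 region higher and 5 or 6 lower. Nr1d1, the clock repressor REV-ERB alpha and a direct target of BMAL1, had the highest end level of the list, with 104 ± 19.9 per 100 bp in Vehicle against 71.2 at its start. Its summed end signal was 689.7, 475, 562 and 463 in Vehicle and 474, 515, 496 and 602 in iMSBmal1KO, with overlapping groups (log2 change -0.06, adjusted p = 0.928). Csnk1e, a kinase of the PER proteins, held 43.0 ± 10.5 and Cry2, a repressor of the clock, held 32.7 ± 2.56 against 121 at its start.

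Sarcomere genes had end-annotated regions at 16 of 22 listed genes, and of 80 tested, 9 were higher and 0 lower at an unadjusted p under 0.05, where 6.59% of all tested regions were higher and 2.63% lower. Their median log2 change was 0.28 beside 0.12 for all tested regions, and under the other scalings it was 0.14 to 0.16 beside 0.00 to 0.01, with 4 or 5 regions higher. Without Vehicle replicate 4 it was 0.18, with 2 higher. The summed signal was 2308 to 3965 in Vehicle and 3239 to 4759 in iMSBmal1KO. Tpm1, a tropomyosin, had the highest end level, 45.6 ± 15.2 per 100 bp, and Tnnc2, the fast troponin C, held 36.0 ± 13.6 in Vehicle and 58.8 ± 12.3 in iMSBmal1KO. The Tnnc2 region read 37.3, 51.4, 57.8 and 21.9 in Vehicle and 62.5, 90.3, 60.8 and 61.5 in iMSBmal1KO, so that every iMSBmal1KO library was higher, without passing the test (log2 change 0.76, adjusted p = 0.367).

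For regulators of muscle mass with long 3' UTRs, 7 of 12 listed genes had 148 end-annotated regions, and of the 35 tested, 0 were higher and 4 lower at an unadjusted p under 0.05, beside the same 6.59% and 2.63%. Their median log2 change was -0.10 and stayed below 0 under the 4 other scalings, between -0.22 and -0.17. The summed signal was 1186 to 1292 in Vehicle and 981 to 1147 in iMSBmal1KO. These ranges did not overlap, and no background was computed for sums over a list. Like the other lists, this one was chosen with earlier results of these data known, so its decrease is a description only. Rptor, the mTORC1 subunit raptor, held 42 of the 148 regions, which summed to 602, 470, 649 and 460 in Vehicle and 413, 433, 398 and 487 in iMSBmal1KO. Foxo3, a transcription factor that induces atrophy genes, held 18, with 148, 138, 159 and 141 in Vehicle and 87.7, 151, 123 and 122 in iMSBmal1KO. Neither passed the test (adjusted p = 0.533 and 0.606), and for each the groups overlapped.

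The remaining lists had few tested regions. For glycolysis and fuel use, 10 of 15 listed genes had end-annotated regions and 27 were tested, with 2 higher and 1 lower and a median of 0.05, which turned to between -0.07 and -0.06 under the other scalings. Of 13 immediate early genes, 6 had 22 end-annotated regions, 12 of them tested, with 1 higher and a median of 0.23, which was 0.10 to 0.13 under the other scalings. Their summed signal was 326 to 380.0 in Vehicle and 385 to 466 in iMSBmal1KO, ranges that did not overlap. No background was computed for this sum either, and it was taken at the deposited scaling only. Genes of 3' end processing, the machinery that cuts and polyadenylates transcripts, had 35 end-annotated regions at 8 of 20 genes. Of these, 7 were tested, with 0 in either direction and a median of 0.26, or 0.14 to 0.19 under the other scalings. The transcripts of replication-dependent histones end in a stem-loop in place of a poly(A) tail. Genes matched to this kind by symbol had 47 end-annotated regions at 22 of 61 genes. The match took every H1f symbol and was not checked gene by gene, so it can include histones of other kinds. Of the 47 regions, 9 were tested, with 0 in either direction and a median of 0.24, or 0.12 to 0.16 under the other scalings. H1f2, a linker histone, held the most, 65.8 ± 15.4 per 100 bp against 37.7 at its start. Nudt21, a cleavage factor subunit that sets the choice of poly(A) site, held 17.6 ± 4.98.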

How the data were processed

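ATAC-seq signal was read from 1 table of regions with 8 library columns, 4 Vehicle and 4 iMSBmal1KO. The deposited signal values were taken as reads scaled by a factor per library. Among a library's low non-zero values, 98.8 to 99.8% were whole multiples of 1 step (tolerance 0.02 reads). Higher values were not checked for this. The submitters' processing notes name Partek, Bowtie2, MACS2 and DESeq2 and the builds mm10 and GRCm39, with no roles. Contig names and gene positions matched GRCm38, and sequences and gene ends came from RefSeq tables of GRCm38.p6. Gene section and transcript class were taken as deposited.

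Regions with at least 0.762 read equivalents per M in 4 libraries and 15 in all were tested by limma 3.58.1 (R 4.3.3, robust trended empirical Bayes) on log2(signal + 1), iMSBmal1KO minus Vehicle, without a block, with Benjamini-Hochberg adjustment over all tested regions and a threshold of 0.05. Fold changes are on that scale, which understates changes of low regions. Gene sums and end-to-start ratios were fitted likewise. The share of reads was compared by an exact permutation test. Fits were tested on simulated data. The rule for names took the 10 genes and the 10 single regions strongest in Vehicle, all regions past the threshold, the gene with the most regions, the highest genes of each list and the genes whose ratio passed. RefSeq ends, gene sums, regions just outside the threshold and Notch3 were chosen after their values were seen. The end-annotated regions and the gene lists were chosen with earlier results of these data known. Alternatives covered scaling, filter, pseudocount, voom, the replicate block, merging and leaving out each library. Libraries held 4.31 to 29.5 M read equivalents, and intervals were not given because reads are not independent molecules. Python 3.11.15 with pandas 2.3.3 was used for the rest.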

Additional observations from a re-analysis of the deposited data

Results flagged for a closer look

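In groups of 4 libraries, a library was set apart when its gap to the nearest other, as a part of the group's range, passed Dixon's 95% critical value, which chance gives in about 1 in 20 groups. Of 152 groups of values tested, 4 (2.63%) held such a library. The 51 bp CT010467.1 region that rose read 50.03 in Vehicle replicate 4, while the rest of Vehicle read 81.0 to 85.3. The summed end signal of Gm21738 was 12793 in Vehicle replicate 2, against 16278 to 16993 in the others. That of Gm19193 was 1382 in Vehicle replicate 3, against 416 to 482. That of Uvrag was 768 in iMSBmal1KO replicate 2, against 705 to 709.7 in the other iMSBmal1KO libraries.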

How the results depend on the processing

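The count of 12 called end-annotated regions became 29 with median-of-ratios, 29 with trimmed-mean, 25 with total autosomal and 32 with loess scaling, each with 11 of the 12 among them, and 29 with limma-voom, with all 12, while the 110 calls over all tested regions became 279, 277, 223, 342 and 342. It was 2 at an adjusted p of 0.01. It was 6 for 3' UTR Exon regions alone (0.157% of those tested) and 6 for TTS regions alone (0.0870%). For RefSeq ends, an alternative chosen after seeing the data, it was 2 (0.0775%). The count lay between 10 and 18 under the other filters and pseudocounts, with autosomes only, with abutting regions merged and over 1000 bp from a start. Leaving out each library in turn gave 2 to 28 calls, with 2 to 12 of the original 12 among them. The median log2 change of 0.08 reversed to -0.0336 (median-of-ratios), -0.0327 (trimmed-mean), -0.0424 (total) and -0.0350 (loess), and ranged from -0.00326 to 0.110 with a library left out, reversed without Vehicle replicate 4. The 11 gene sums became 25, 25 and 26 under median-of-ratios, trimmed-mean and total scaling, and 3 to 26 with a library left out. The 4 ratios became 2 with no filter and 1 to 6 with a library left out. The difference in share reversed to 0.175 with all chromosomes in the denominator and to 0.0366 with TTS regions alone. It was -0.137 with 3' UTR Exon regions alone and -0.377 without the 20 strongest regions. With a library left out it ranged from -0.154 to 0.00325, reversed without Vehicle replicate 3. The causes were not tested.

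Replicate numbers did not pair the libraries, since same-numbered libraries had correlations of -0.064, 0.140, 0.0226 and 0.0246. With the replicate number as a block there were 12 called regions, 9 of them shared, 16 gene sums, 5 ratios and a share difference of -0.101 (exact sign-flip test, p = 0.75, smallest possible 0.125). The planned edgeR test on whole reads was not run because the reads could not be recovered for all values. No direction of a called region reversed in any alternative run. Depth limited the low regions most: 1.88 to 24.0% of end-annotated regions were at 0 in a library.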
